A study of Mus musculus with 15 samples.

Results

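The comparison described here sets mouse macrophages that were exposed to IFNβ before LPS against macrophages that received LPS alone. It rests on 4 of the 15 bead arrays of the study, the 2 titled IFNb_LPS and the 2 titled Ctrl_LPS, which lay on the same slide. Every gene with a probe detected on each array of at least 1 of the study's 6 groups was tested, which gave 7669 genes. Of these, 7178 were detected on at least 1 of the 4 arrays, 5971 on all 4 and 491 on none. Primed cells received IFNβ for 18 h and LPS for 6 h, and unprimed cells received LPS for 6 h. The other groups used below are cells with IFNβ alone for 18 h (IFNb, 2 arrays), cells with IFNγ for 18 h and LPS for 6 h (IFNg_LPS, 3 arrays) and untreated cells (Ctrl, 3 arrays). All were macrophages grown from the bone marrow of C57Bl/6 mice, and the ultrapure E. coli LPS is labelled at 10 ng/µl, a unit in doubt. The sources used here do not give the doses of the interferons, nor whether cells without LPS were kept for the further 6 h. They do not say either whether a group's arrays stand for separate cultures or animals, so p-values measure only the spread among arrays, and that spread may be technical.

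IFNβ is a type I interferon. It binds the receptor of Ifnar1 and Ifnar2 and, through Jak kinases, switches on antiviral genes that carry interferon-stimulated response elements in their promoters. LPS, a lipid-bearing sugar of the Gram-negative cell wall, is sensed by Tlr4, which drives inflammatory cytokine genes through NF-kB and also makes macrophages release IFNβ of their own. Cells treated with LPS alone are therefore known to come under type I interferon as well, and the comparison asks what exposure before LPS adds.

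Of 8 macrophage markers, 5 were among the genes tested (Adgre1, Itgam, Lyz2, Fcgr1 and Spi1). All 5 were detected on all 4 arrays and none was called different. Adgre1, which encodes F4/80, averaged 13.91 in primed and 13.91 in unprimed cells, on the log2 scale of normalized intensity used throughout. Array medians before normalization were 1.43 and 1.37 times background in primed and 1.46 and 1.47 times in unprimed cells. The primed arrays correlated with each other at r = 0.980 across genes (not independent replicates) and the unprimed ones at 0.986. Primed with unprimed arrays correlated at 0.974 to 0.982, so the primed pair was no more alike than most pairs across the groups. In the IFNg_LPS group, which enters the estimate of spread, array 1 stood apart, at r = 0.979 and 0.980 with its companions against 0.989 between them.

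Few genes differed. After IFNβ priming 27 of 7669 genes were called higher (0.352%) and 19 lower (0.248%), 46 in all (0.600%), at an adjusted p under 0.05 in limma's test. Without adjustment, 946 genes, or 12.3%, had a p under 0.05. The median log2 difference of all genes was -0.02 with a median SE of 0.225, and 106 genes (1.38%) differed by more than 1 log2 unit. Both primed arrays lay above both unprimed arrays for 1356 genes (17.7%) and below them for 1567 (20.4%), and all 46 called genes were among these. Genes called higher included Il10, Kynu, Siglec1, Cd55, Ch25h, Cxcl9 and Tnfsf10. Those called lower included 3 enzymes of sterol synthesis, Mvd, Hsd17b7 and Nsdhl, and the prostaglandin enzyme Ptges. Among the called genes, 26 were detected on all 4 arrays, and 14 had a mean log2 intensity under 7 in both groups.

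These calls rest on a spread estimated over all 15 arrays. Fitted on the 7 arrays of the LPS slide alone, or on the 4 arrays compared alone, limma called 0 genes, with 680 and 656 at an unadjusted p under 0.05 and smallest adjusted p-values of 0.168 and 0.306. Of the 46 calls, 12 remained without primed array 1, 3 without primed array 2, 1 without unprimed array 1 and 15 without unprimed array 2, each time leaving 1 array in a group that is assumed to vary like the others. Without array 1 of IFNg_LPS, 78 genes were called and all 46 were among them. That array is outside the comparison, so leaving it out changed the estimate of spread and none of the differences. Leaving out an array that stands apart by itself favours more calls. No other array outside the comparison was left out singly in this test. Gna11 was the only gene called without each of the 4 arrays in turn.

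**Figure D1:**
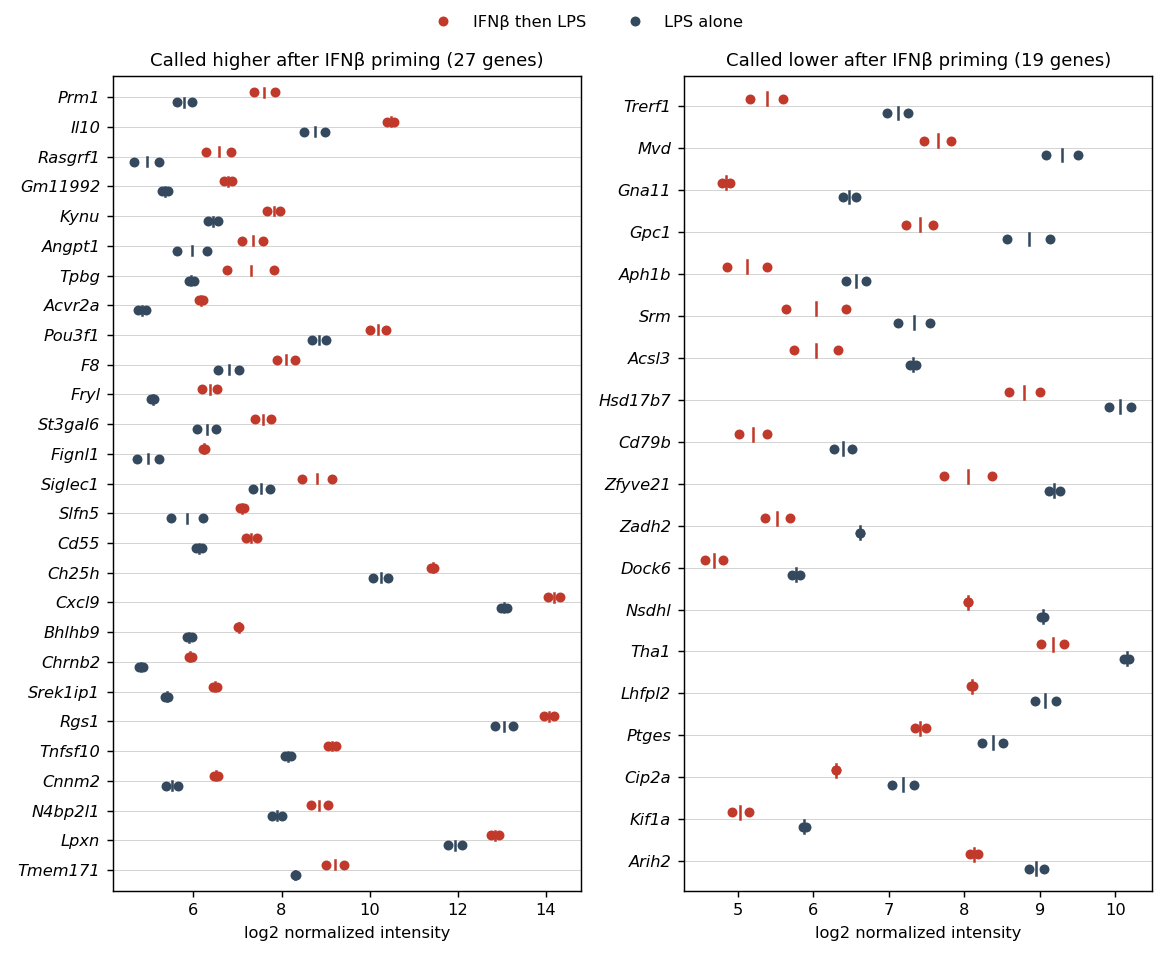
Log2 normalized intensity of the 27 genes called higher (left) and the 19 called lower (right), with 1 point per array for IFNβ then LPS (2 arrays) and LPS alone (2 arrays) and a vertical bar at each group's mean. In each gene shown both arrays of one group lie apart from both of the other, and 14 of the 46 have a mean under 7 in both groups.

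Il10, the anti-inflammatory cytokine that restrains macrophages, had the largest rise among genes detected on all 4 arrays. It stood at 10.56 and 10.40 in primed cells, against 8.52 and 9.0 in unprimed cells. Both primed arrays lay well above the unprimed ones, a 3.3-fold rise (log2 difference 1.72, SE 0.26, adjusted p = 0.0166). With 1 array left out the adjusted p was 0.031 without unprimed array 2 and 0.0535 to 0.132 without each of the others, while the difference stayed between 1.48 and 1.96. Of 28 tested genes of the list of anti-inflammatory factors Il10 was the only one called. The list's median was 0.20 against -0.02 for all genes, and 11 of its members were higher and 6 lower without overlap, where all genes gave 17.7% and 20.4%. Dusp1, a phosphatase that shuts off MAP kinases, differed by 0.55 (adjusted p = 0.282), and Irak3, an inhibitor of Toll-like receptor signalling, by -0.88 (adjusted p = 0.27). The list's median moved to 0.01 without unprimed array 1 and to 0.00 without primed array 2.

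Among secreted ligands, the chemokine Cxcl9, which draws T and NK cells through Cxcr3, rose. Its levels were 14.33 and 14.06 in primed cells, against 12.98 and 13.13 in unprimed cells. That is a difference of 1.14 (SE 0.21, 2.21-fold, adjusted p = 0.0272). Tnfsf10, the death ligand TRAIL, stood at 9.25 and 9.06 in primed cells, against 8.08 and 8.22 in unprimed cells (difference 1.0, SE 0.20, adjusted p = 0.0414). Angpt1, a ligand of the Tie2 receptor, had 7.58 and 7.11 in primed cells, against 6.31 and 5.63 in unprimed cells, where only 1 array detected it (difference 1.38, adjusted p = 0.0313). None of these 3 was called when any 1 of the 4 arrays was left out, with adjusted p-values of 0.0708 to 0.208 for Cxcl9.

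Of the chief inflammatory mediators of the LPS response, none of those given here passed the test, and 3 did so without array 1 of IFNg_LPS. Tnf stood at 13.47 and 13.72 in primed cells, against 14.00 and 13.99 in unprimed cells (difference -0.40, adjusted p = 0.59). Il6 differed by -0.04 (SE 0.22). Il1b, the main fever cytokine of the inflammasome, had 12.87 and 12.78 in primed cells, against 14.09 and 14.09 in unprimed cells. Its arrays were well apart, yet the difference of -1.27 had an SE of 0.44 and an adjusted p of 0.232. Without array 1 of IFNg_LPS, the one that stood apart, the adjusted p was 0.0151 for Il1b, 0.0295 for Cxcl2 and 0.0445 for Il27. Their differences stayed the same, since that array enters only the estimate of spread. The neutrophil chemokines Cxcl1 and Cxcl2 differed by -0.94 and -1.05 (adjusted p = 0.308 and 0.415), and Il27, a cytokine subunit, by 0.72 (adjusted p = 0.0935). Over the 18 inflammatory cytokines tested the median was 0.005, with Tnfsf10 the only call, and over the 17 chemokines it was 0.05, with Cxcl9 the only call. Nos2, which makes nitric oxide, stood at 9.72 and 10.75 in primed cells, against 9.49 and 9.52 in unprimed cells (difference 0.73, adjusted p = 0.388).

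Several called genes act at the cell surface or in signalling. Siglec1, the sialic acid receptor sialoadhesin, had 8.47 and 9.14 in primed cells, against 7.73 and 7.35 in unprimed cells (difference 1.27, SE 0.21, adjusted p = 0.0191). Cd55, which protects cells from complement, had 7.19 and 7.44 in primed cells, against 6.05 and 6.19 in unprimed cells (difference 1.19, SE 0.22, adjusted p = 0.0256). Rgs1, which shortens chemokine receptor signals, had 13.96 and 14.18 in primed cells, against 12.85 and 13.26 in unprimed cells. Its rise of 1.02 (SE 0.17, adjusted p = 0.0195) was seen with 2 further detected probes of the gene, at 1.17 and 1.12. Lpxn, the adhesion adaptor leupaxin, differed by 0.91 (adjusted p = 0.0385). Siglec1 was no longer called without primed array 2 or either unprimed array (adjusted p up to 0.11), Cd55 without any of the 4 (0.069 to 0.203), Rgs1 without primed array 2 or unprimed array 1 (up to 0.198) and Lpxn without any of the 4 (0.0612 to 0.296).

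Of genes with roles in metabolism or transcription, Kynu encodes kynureninase, an enzyme of tryptophan breakdown. It had 7.97 and 7.68 in primed cells, against 6.33 and 6.55 in unprimed cells (difference 1.38, SE 0.25, adjusted p = 0.0256). Pou3f1, a POU domain transcription factor, had 10.36 and 10.01 in primed cells, against 9.01 and 8.69 in unprimed cells (difference 1.34, SE 0.21, adjusted p = 0.0166). F8, coagulation factor VIII, rose by 1.30 (adjusted p = 0.0177), and a second detected probe of the gene gave 1.16. Prm1, which packs DNA in sperm, had 7.84 and 7.38 in primed cells, against 5.97 and 5.62 in unprimed cells (difference 1.82, adjusted p = 0.0191). That was the largest estimate among the called genes, but the rank is not settled. The 5.62 on unprimed array 2 lay below the lowest signal detected on that array, 5.71. For 15 called genes the folds are only lower bounds. Kynu, Pou3f1 and Prm1 were not called when any 1 of the 4 arrays was left out, and F8 was called without primed array 2 or unprimed array 2 only.

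For 15 of the 46 called genes, both arrays of one group were below the detection threshold (8 in unprimed and 7 in primed cells), so their folds are lower bounds, taken from the lowest signal that each array detected. Rasgrf1, a Ras exchange factor, had 6.29 and 6.85 in primed cells, against 5.22 and 4.65 in unprimed cells where it was not detected, and was at least 1.80-fold higher (adjusted p = 0.0191). Among the genes not detected in primed cells, Trerf1, a transcriptional regulator, had 5.61 and 5.16 there, against 7.26 and 6.98 in unprimed cells, and was at least 2.48-fold lower (adjusted p = 0.0198). Gna11, a G-protein alpha subunit, had 4.90 and 4.79 in primed cells, against 6.39 and 6.57 in unprimed cells. It was at least 1.59-fold lower, with an adjusted p of 0.00399 and one of 0.00751 to 0.0448 with 1 array left out. Zadh2, an oxidoreductase, was at least 1.76-fold lower, and Aph1b, a subunit of gamma-secretase, at least 1.69-fold lower. Of further genes not detected in unprimed cells, Cnnm2 was at least 1.73-fold higher, Srek1ip1 at least 1.70-fold, Fryl at least 1.56-fold and Fignl1 at least 1.43-fold. Apart from Gna11, none of these genes kept its call without each of the 4 arrays in turn. Cnnm2 was still called in 4 of the 17 alternative fits that could test it.

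**Figure D2:**
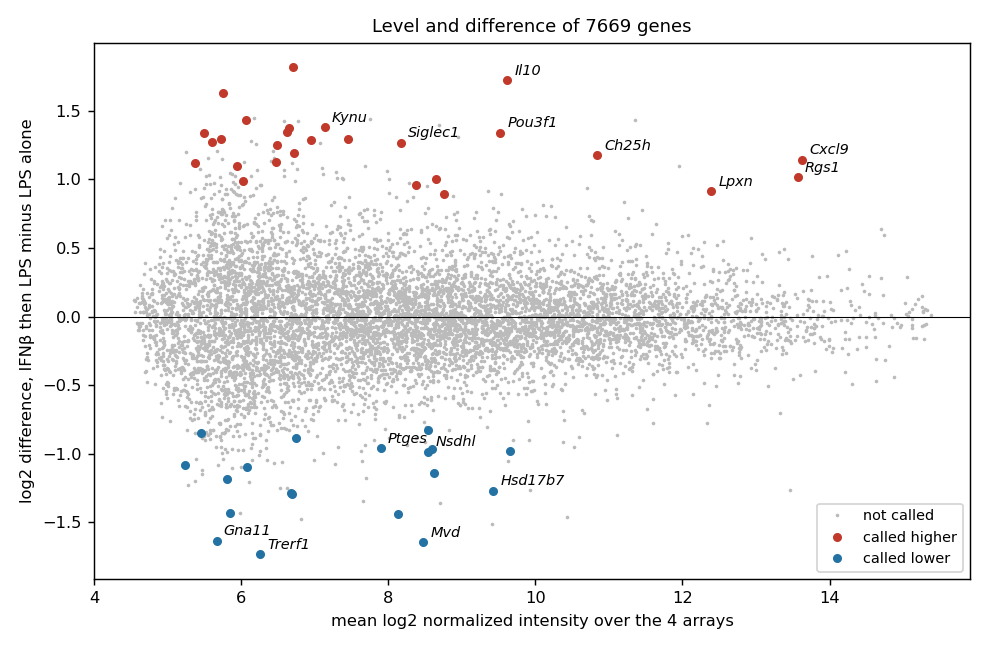
Log2 difference (IFNβ then LPS minus LPS alone) of all 7669 tested genes against their mean log2 normalized intensity over the 4 arrays, with genes called higher and lower in colour. Most genes lie within 0.5 log2 units of 0, and the calls spread over the range of levels, with Cxcl9 and Rgs1 at the bright end and Gna11 and Trerf1 at the dim end.

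Genes of sterol synthesis were lower as a list. The pathway turns acetyl-CoA through mevalonate and squalene into cholesterol, and Srebf2 is its main transcription factor. Of 25 genes listed, 18 were tested, of which 3 were called lower, 0 were called higher and 17 had a negative difference. Of all 7669 genes, 19 were called lower (0.248%) and 4066 had a negative difference. The median was -0.72, against -0.02 over all genes, and in 14 of the 18 both primed arrays lay below both unprimed ones, as in 20.4% of all genes. An unadjusted p under 0.05 was reached by 12 of 18, all lower, against 490 of 7669 genes in that direction. The list was chosen with earlier results of these data known, so its direction has no independent support here. Primed array 1 had 17 of 18 genes below the unprimed mean, with a median of -0.69, and primed array 2 had 15 of 18, with a median of -0.65. Between the unprimed arrays, 9 of the 18 were higher in array 1 and 9 in array 2.

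Mvd, which decarboxylates mevalonate diphosphate, had 7.47 and 7.83 in primed cells, against 9.50 and 9.09 in unprimed cells. It fell by 1.65 on the log2 scale (SE 0.26, 3.13-fold, adjusted p = 0.0186), the largest fall of a gene detected on all 4 arrays. Hsd17b7, a reductase of the late pathway, had 9.0 and 8.59 in primed cells, against 10.21 and 9.91 in unprimed cells, and fell by 1.27 with an adjusted p of 0.0499, at the threshold. Nsdhl, which helps to remove methyl groups from the sterol ring, had 8.05 and 8.05 in primed cells, against 9.01 and 9.06 in unprimed cells. It fell by 0.99 (SE 0.17, adjusted p = 0.0195), and its 3 further detected probes gave -0.73 to -1.0. Lss, which closes the sterol ring, had 7.55 and 8.48 in primed cells, against 9.31 and 9.45 in unprimed cells (difference -1.36, adjusted p = 0.146). Sqle, Cyp51 and Fdps, further enzymes of the pathway, differed by -0.95, -0.90 and -0.78 (adjusted p = 0.173, 0.2 and 0.0935). Srebf2 differed by -0.34 and Hmgcs1, the synthase before mevalonate, by -0.70, neither past the test. With 1 of the 4 arrays left out, 0 or 1 of the 18 was called and 15 to 18 were negative, with medians of -0.62 to -0.72. Without array 1 of IFNg_LPS 7 were called lower, with Lss, Sqle, Cyp51 and Fdps added (adjusted p = 0.0278, 0.0236, 0.0151 and 0.028). Mvd was still called without unprimed array 2 (adjusted p = 0.0374), but not without the others (up to 0.154), and Hsd17b7 and Nsdhl were called in none of these fits (0.0844 to 0.305 and 0.0831 to 0.132).

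**Figure D3:**
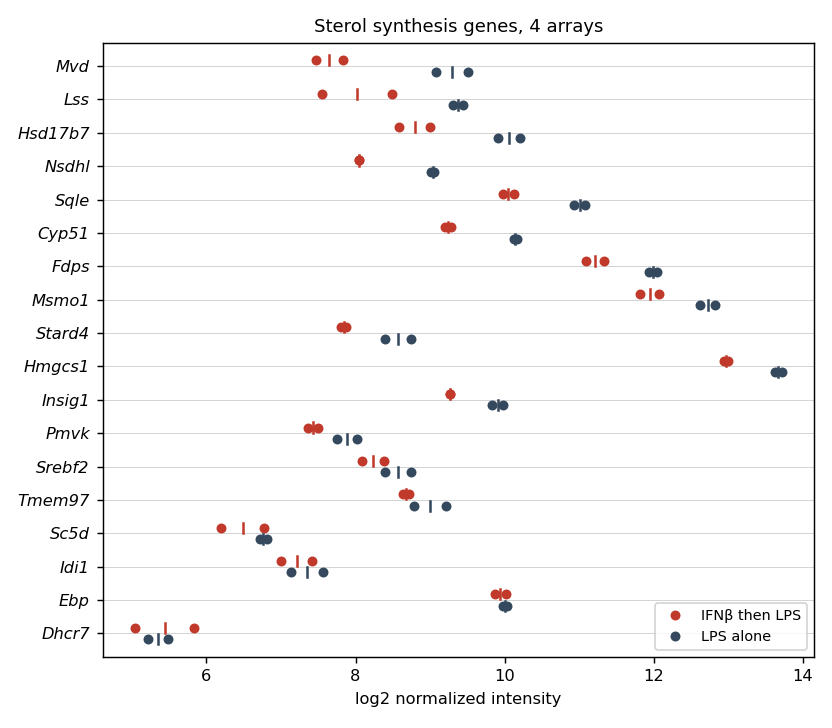
Log2 normalized intensity of the 18 tested genes of sterol synthesis on each of the 4 arrays, ordered by difference, with a vertical bar at each group's mean. In 14 genes both arrays with IFNβ before LPS lie left of both arrays with LPS alone, and only Dhcr7, at the foot of the plot, has a positive difference.

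Next to this pathway stand Ch25h and Acsl3. Ch25h, which makes 25-hydroxycholesterol, an oxysterol known to hold back sterol synthesis, had 11.39 and 11.47 in primed cells, against 10.09 and 10.42 in unprimed cells. It rose by 1.18 (SE 0.22, 2.26-fold, adjusted p = 0.0256; 0.0561 to 0.224 with 1 array left out). Whether it bears on the sterol genes was not tested. Of the 15 tested genes of oxysterols and lipid efflux it was the only call, and the median was -0.08. Acsl3, an acyl-CoA synthetase, had 6.33 and 5.74 in primed cells, against 7.36 and 7.28 in unprimed cells (difference -1.28, adjusted p = 0.0385), while a second probe of the gene was detected on none of the 4 arrays. Ptges, which makes prostaglandin E2, had 7.49 and 7.34 in primed cells, against 8.51 and 8.24 in unprimed cells (difference -0.96, SE 0.19, adjusted p = 0.0385), and a second probe, detected on 1 of the 2 primed arrays, gave -1.37. Ptges was not called when any 1 array was left out (0.0823 to 0.284). Ptgs2, the enzyme before it, differed by 0.32 (adjusted p = 0.736).

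Other called genes that fell have varied roles. Gpc1, a heparan sulphate proteoglycan of the cell surface, had 7.23 and 7.59 in primed cells, against 9.14 and 8.56 in unprimed cells (difference -1.44, adjusted p = 0.0329). Srm, which makes the polyamine spermidine, had 5.64 and 6.44 in primed cells, against 7.12 and 7.55 in unprimed cells (difference -1.30, adjusted p = 0.0385), and 2 further probes, each detected on 1 of the 2 primed arrays, gave -0.94 and -1.67. Tha1, a threonine aldolase, fell by 0.98 and Lhfpl2, a membrane protein, by 0.97 on the log2 scale (adjusted p = 0.0499 and 0.0191). Gpc1 was called without unprimed array 2 but not without the others (up to 0.278), Srm without primed array 2 only (up to 0.159), Lhfpl2 without unprimed array 2 only (up to 0.185) and Tha1 in none.

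Among markers of other cells, 26 of the 87 listed were tested, 18 of them detected on all 4 arrays and 2 on none. An unadjusted p under 0.05 was reached by 5 of the 26, against 946 of all 7669 genes. Cd79b, a subunit of the B cell receptor, was the only call. It had 5.02 and 5.39 in primed cells, where it was not detected, against 6.27 and 6.51 in unprimed cells, and was at least 1.5-fold lower (adjusted p = 0.0385). Of the 17 alternative fits that could test Cd79b, 3 still called it. Among those that did not were the fits with no background correction and with an offset of 50. Cd22 and Blnk, the other B cell markers tested, differed by 0.10 and -0.21. The summed linear level of the 9 neutrophil markers was 5046 and 5682 in primed cells, against 6446 and 6735 in unprimed cells, and Mmp9 was lowest among them at a difference of -1.48 (adjusted p = 0.142, and 0.0238 without array 1 of IFNg_LPS). Dendritic cell markers summed to 7389 and 8789 in primed cells, against 6189 and 7215 in unprimed cells. The 3 B cell markers summed to 1251 and 1169 in primed cells, against 1346 and 1479 in unprimed cells. The 1 fibroblast and stromal marker tested had 125 and 89 in primed cells, against 80 and 64 in unprimed cells. Sums of the T and NK cell, mast cell and erythroid lists overlapped between the groups. The part of other cells in the calls was not tested. In cultured cells of this kind, fewer cells of a type and less RNA per cell cannot be told apart.

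Of the antiviral genes that IFNβ is known for, 1 was called under LPS. Without LPS, IFNβ alone changed 86 genes against untreated cells (1.12%), 72 of them upward and 14 downward, on arrays that share none with the primed and unprimed ones. Under LPS 4 of those 72 were called higher, against 0.352% of all genes, and 44 were higher without overlap, against 17.7% of all genes. Their median difference was 0.29 under LPS and 1.20 without it, and it was smaller under LPS for 70 of the 72. The 72 were picked for a high difference without LPS, which by itself favours a smaller one elsewhere, so these values only describe them. In unprimed cells with LPS, 70 of the 72 were called higher than in untreated cells, as were 1627 of all 7669 genes. That comparison shares arrays with both others, and in it slide and LPS cannot be told apart. Of 42 antiviral genes tested, 1 was called higher under LPS, with a median of 0.29. Differences were positive for 35 of the 42, against 3603 of all 7669 genes. Without overlap 23 were higher and 1 lower, where all genes gave 17.7% and 20.4%. An unadjusted p under 0.05 was reached by 8, all higher, against 456 of 7669 genes in that direction. Without LPS 24 of the 42 were called higher, with a median of 0.98. The median level of the 42 was 11.97 in primed and 11.83 in unprimed cells, against 9.21 with IFNβ alone and 7.67 in untreated cells. Of the 42, 7 lay within 1 log2 unit of the highest signal of 15.41, and the part of that limit in the smaller differences was not tested.

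**Figure D4:**
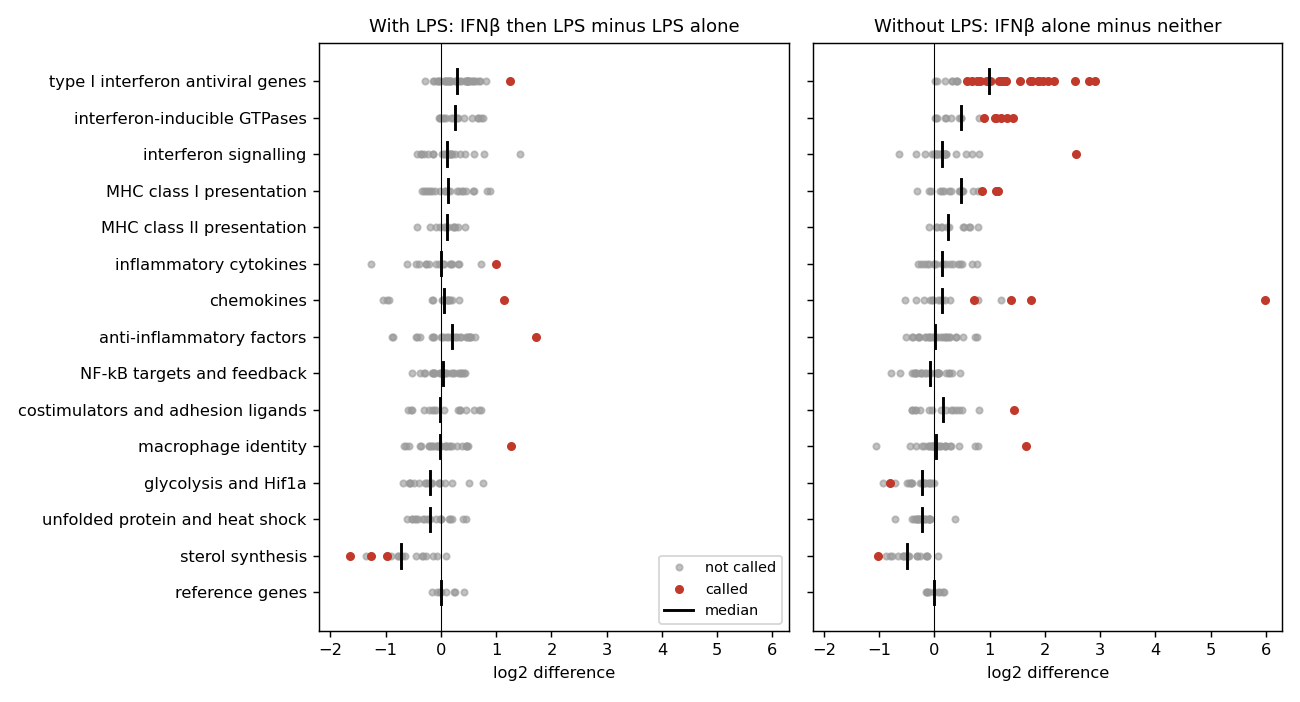
Log2 differences of the tested members of 15 gene lists under LPS (left, IFNβ then LPS minus LPS alone) and without LPS (right, IFNβ alone minus neither), 1 point per gene, called genes in red and a bar at each median. The antiviral genes centre at 0.29 on the left and 0.98 on the right, and the sterol genes at -0.72 and -0.50.

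Isg15, the ubiquitin-like antiviral protein, shows the pattern. It stood at 14.68 and 14.57 in primed cells, against 14.45 and 14.46 in unprimed cells (difference 0.17, SE 0.25). With IFNβ alone it had 9.27 and 9.34, against 7.79, 7.88 and 6.97 in untreated cells, a rise of 1.76 (adjusted p = 0.00108). Ifit3, which binds foreign RNA in a complex with other Ifit proteins, had 15.04 and 14.99 in primed cells, against 14.39 and 14.37 in unprimed cells. That difference of 0.64 did not pass the test (adjusted p = 0.613), while IFNβ alone raised Ifit3 by 2.90. In primed cells Isg15 and Ifit3 lay within 1 log2 unit of the highest signal of 15.41, as 7 of the 42 antiviral genes did under LPS. Rsad2, the antiviral enzyme viperin, differed by -0.06 under LPS and rose by 1.97 without it. Slfn5, of the Schlafen family, was the antiviral gene called under LPS. It had 7.06 and 7.14 in primed cells, against 5.50 and 6.21 in unprimed cells (difference 1.25, SE 0.24, adjusted p = 0.0349), and differed by 0.05 with IFNβ alone. Its call held without unprimed array 2 and not without the others (up to 0.284).

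The test of whether the difference itself changed with LPS called 12 genes (0.156%). In 10 of them the effect of IFNβ was smaller or turned under LPS. Ccl5, a chemokine for T cells and monocytes, stood at 15.28 and 15.41 in primed cells, against 15.33 and 15.26 in unprimed cells. With IFNβ alone it had 13.27 and 13.10, against 7.42, 6.84 and 7.33 in untreated cells. The difference was 0.05 under LPS and 5.99 without it (change of -5.94, adjusted p = 3.44e-08), and both LPS groups lay at the top of the scale. Marco, a scavenger receptor well below the top of the scale, had 8.84 and 8.56 in primed cells, against 9.11 and 9.22 in unprimed cells, and rose by 2.10 with IFNβ alone (change of -2.57, adjusted p = 0.0318). The others of this kind were Saa3, Ly6e, Oasl2, Ccl8, Oas1g, Ifi47, Phf11d and Gbp2. In Fignl1, a DNA repair ATPase, and Bhlhb9 the change was positive, 1.69 and 1.45. The slide, LPS and any difference in culture time cannot be told apart in this test. The number of called changes was 26 without array 1 of IFNg_LPS. It fell to 1 without unprimed array 2 or either IFNβ-alone array, to 2 without primed array 2, to 3 without unprimed array 1, to 6 without array 2 of untreated cells and to 7 without primed array 1.

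**Figure D5:**
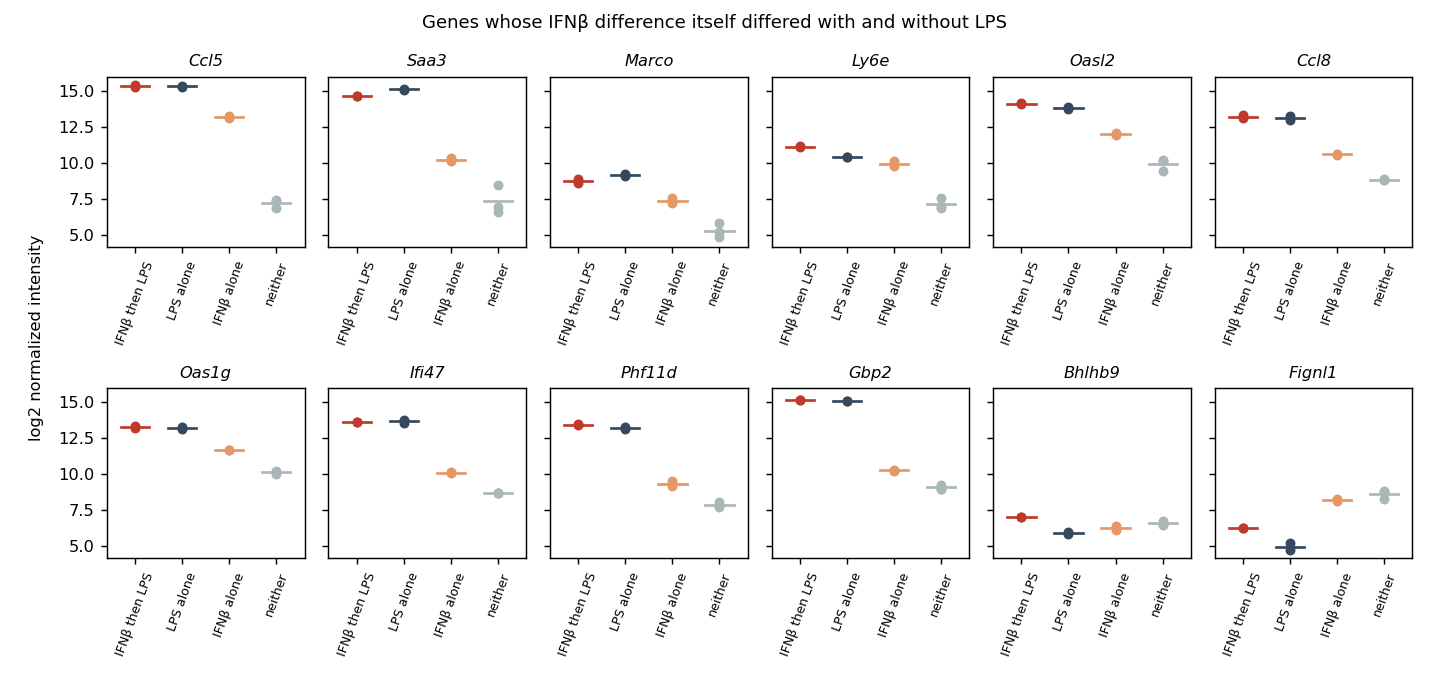
Log2 normalized intensity of the 12 genes whose IFNβ difference itself differed with and without LPS, 1 point per array and a bar at each mean, for IFNβ then LPS, LPS alone, IFNβ alone and neither. In the first 10 genes the means of IFNβ alone and neither lie farther apart than those of IFNβ then LPS and LPS alone, and in Bhlhb9 and Fignl1 the primed arrays lie above LPS alone while IFNβ alone lies below neither.

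Promoters were searched for the core of an interferon-stimulated response element. The letters GAAANNGAA were searched on both strands in the 250 bases before each gene's start in RefSeq sequences of build GRCm38.p6. They were found in 23 of 57 promoters of genes that IFNβ alone raised (40.4%) and in 15 of 31 of the antiviral genes (48.4%), sets that share genes. They were found in 2 of 20 promoters of the genes called higher under LPS (10%), those of Cxcl9 and Slfn5, and in 8.08% of the 6325 tested genes with a promoter in the table. Of all 27025 promoters 8.18% held them. The following stretches are shown because they carry the element in the only such genes called higher under LPS, Cxcl9 and Slfn5, and in genes that IFNβ raised without LPS and that differed by under 0.7 under it. Capitals mark the matched letters, which appear as the reverse complement where the match is on the other strand. Cxcl9 lies at chr5:92328211-92328289 on the minus strand, Slfn5 at chr11:82951912-82951990 on the plus strand, Ifit3 at chr19:34583339-34583417 on the plus strand, Isg15 at chr4:156200853-156200931 on the minus strand, Gbp2 at chr3:142620570-142620648 on the plus strand and Oas1g at chr5:120887614-120887666 on the minus strand.
Cxcl9: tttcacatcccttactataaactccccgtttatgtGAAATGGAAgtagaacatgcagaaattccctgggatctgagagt
Slfn5: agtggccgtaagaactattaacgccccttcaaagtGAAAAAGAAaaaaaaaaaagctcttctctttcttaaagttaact
Ifit3: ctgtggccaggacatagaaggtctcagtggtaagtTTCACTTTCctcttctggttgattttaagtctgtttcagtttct
Isg15: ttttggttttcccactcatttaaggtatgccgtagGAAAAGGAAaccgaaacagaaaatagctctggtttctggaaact
Gbp2: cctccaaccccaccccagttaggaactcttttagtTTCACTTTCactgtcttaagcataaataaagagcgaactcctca
Oas1g: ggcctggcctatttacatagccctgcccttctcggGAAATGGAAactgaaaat
Each is read 5′ to 3′ on the strand of its gene. Slfn5, Ifit3, Isg15 and Oas1g hold more than 1 match, of which the one farthest from the start is in capitals. A match is a description of letters and not a site of binding.

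The core of a sterol regulatory element, TCACNCCAC, was searched in the same way on both strands. It was found in 1 of 15 promoters of the tested sterol genes, that of Hmgcs1, and in 1.11% of the 6325 tested genes. Hmgcs1, shown as the sterol gene that holds it, had 12.99 and 12.95 in primed cells, against 13.72 and 13.62 in unprimed cells. Its stretch lies at chr13:119690179-119690257 on the plus strand, with the match in capitals.
Hmgcs1: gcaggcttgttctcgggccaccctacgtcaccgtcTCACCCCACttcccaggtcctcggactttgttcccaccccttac

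Of the 46 genes called under LPS, 5 were also called with IFNβ alone, all with the same sign, against 86 of all 7669 genes (1.12%). The 5 were Siglec1, Cd55, Cxcl9 and Pou3f1, higher by 1.66, 1.33, 1.39 and 0.92 without LPS, and Gpc1, which fell by 1.52 on the log2 scale. The others of the 46 were not called with IFNβ alone. Kynu differed by -0.04, Ch25h by -0.02 and Tnfsf10 by 0.13, and Il10 by 0.77 (adjusted p = 0.252). The change with LPS was not called for any of these 4 (adjusted p = 0.167 for Kynu, 0.175 for Ch25h, 0.352 for Tnfsf10 and 0.48 for Il10), so their effects with and without LPS are not shown to differ. The sterol genes had a median of -0.50 without LPS, where Insig1, which holds back Srebf2, was the only call at -1.03.

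Gene families of interferon effect other than the antiviral genes showed few or no calls under LPS. Of 16 interferon-inducible GTPases, which attack the vacuoles of microbes, 8 were higher without overlap, 0 lower and 0 called by limma (4 at an unadjusted p under 0.05, all higher), with a median of 0.26. Of all genes 17.7% were higher without overlap, and 456 of 7669 were higher at an unadjusted p under 0.05. Gbp2b, Tgtp1 and Iigp1 differed by 0.77, 0.72 and 0.68 (adjusted p = 0.246, 0.236 and 0.221). Irf8, a transcription factor of the myeloid lineage, had 11.73 and 12.39 in primed cells, against 10.45 and 10.81 in unprimed cells. Its difference of 1.43 lay just outside the threshold (adjusted p = 0.0616, and 0.0289 without array 1 of IFNg_LPS), as did that of Ifitm1, a membrane protein that blocks viral entry, at 0.82 (adjusted p = 0.0612). Just inside the threshold lay Dock6 (adjusted p = 0.04996) and Hsd17b7, and nearest outside it Cited2 (adjusted p = 0.0567) and Cdcp1 (adjusted p = 0.0584). Irf7, which amplifies type I interferon, differed by 0.78 (adjusted p = 0.218), after a rise of 2.56 with IFNβ alone. The 21 genes of MHC class I presentation had a median of 0.13 and 0 calls by limma (4 at an unadjusted p under 0.05, all higher), with H2-Q8 highest at 0.90 (adjusted p = 0.0755). Those of MHC class II numbered 12, with a median of 0.10, 0 calls by limma and 0 at an unadjusted p under 0.05. Of these 12, 9 were detected on all 4 arrays and 3 on none, tested only because another group detected them.

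The lists of glycolysis and of the stress responses held no call. The 19 genes of glycolysis and Hif1a had a median of -0.20, with 8 lower and 3 higher without overlap and 5 lower at an unadjusted p under 0.05. Pfkl, a phosphofructokinase subunit, differed by -0.68 (adjusted p = 0.146), and Slc2a1, the glucose transporter, by -0.56 (adjusted p = 0.226). The 20 genes of the unfolded protein and heat shock responses had a median of -0.20, with 10 lower and 1 higher without overlap and 5 lower at an unadjusted p under 0.05. Of all genes, 20.4% were lower without overlap and 490 of 7669 lower at an unadjusted p under 0.05. Some further lists had medians closer to 0, such as 0.03 for 26 NF-kB targets and 0.07 for 24 genes of the Toll-like receptor pathway. Medians were -0.02 for 16 costimulators and adhesion ligands, -0.04 for 32 genes of the respiratory chain and TCA cycle and 0.05 for 36 of the cell cycle. Hmox1, which breaks down haem, had 10.50 and 8.91 in primed cells, against 11.13 and 11.19 in unprimed cells (difference -1.46, adjusted p = 0.0935), so the primed arrays differed from each other more than primed array 1 did from the unprimed ones. The 9 reference genes had a median of -0.01.

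Priming with IFNγ gave many more calls against the same unprimed arrays, 979 genes (12.8%) with 3 arrays against 2. The comparisons share these arrays, so values are only set side by side. Of the 46 genes, 23 were called with IFNγ too, 20 of them with the same sign. Tested directly, IFNβ-primed and IFNγ-primed cells under LPS differed in 1029 genes (13.4%), and in 398 on the LPS slide alone. Of the 46 genes, chosen on the same IFNβ-primed arrays, 31 were among the 1029. Il10 was higher with IFNβ than with IFNγ by 2.36 log2 units (adjusted p = 3.78e-05), while its differences from unprimed cells were 1.72 with IFNβ and -0.64 with IFNγ. Cd55 was higher by 2.53 (adjusted p = 3.47e-06), with 1.19 for IFNβ and -1.34 for IFNγ. Kynu was lower with IFNβ, at a direct difference of -2.73 (adjusted p = 5.23e-06), with 1.38 for IFNβ and 4.11 for IFNγ. Cxcl9 was lower too, at -1.11 (adjusted p = 0.00204), with 1.14 for IFNβ and 2.26 for IFNγ. Of the MHC class II genes 10 of 12 rose with IFNγ, with a median of 2.95, and 0 with IFNβ. Of the 12, 3 were detected on none of the IFNβ-primed and unprimed arrays, so they could hardly be called with IFNβ. The direct difference was -4.13 for H2-Aa (adjusted p = 5.09e-08) and -3.68 for Ciita, the master regulator of the class (adjusted p = 3.47e-06). For the 18 sterol genes the medians were -0.72 with IFNβ and -0.71 with IFNγ, with 3 and 9 called lower, and for Mvd the direct difference was -0.26 (adjusted p = 0.513).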

How the data were processed

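RNA of 15 macrophage samples was measured on Illumina bead arrays. The deposited table holds, per the file headers, the mean bead intensity and a detection p-value of each of 15978 probes, not normalized. Gene names came from the platform annotation, which gives 14994 probes 1 symbol and 984 none. With limma 3.58.1 in R 4.3.3, background was corrected by normexp from the detection p-values (offset 16), and intensities were quantile normalized and put on the log2 scale. The authors' deposited processed values, on a log2 scale, served as an alternative. Probes were kept where all arrays of some group had a detection p under 0.01 (11117 probes), and each of 7669 genes was represented by its brightest probe. Group means were fitted over all 15 arrays (lmFit, eBayes), two-sided, with Benjamini-Hochberg adjustment over all genes, and called at an adjusted p under 0.05. Precision is limited by how few arrays there are. The procedure was also run on simulated data, with independent noise of the same spread on all arrays for each gene. Such data cannot show how unequal spread between slides or arrays that are not independent affect the calls.

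Members and lists were chosen with earlier results of these data known. Genes were named by a rule: the 15 largest calls each way without overlap, up to 5 lower bounds each way, a list of macrophage readouts, called and largest uncalled members of each list, and genes called in more than 1 test. Of 770 list entries, 769 matched a name and 560 were tested. Alternatives changed the background correction, normalization, detection filter, variance model, replicate block and arrays used. Array weights and detection on all 4 arrays were added after seeing the data. Probes without a symbol were left out.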

Additional observations from a re-analysis of the deposited data

Results flagged for a closer look

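In 12 genes the effect of IFNβ itself differed with and without LPS by limma's test of that change (IFNβ then LPS minus LPS alone, less IFNβ alone minus untreated). The change was -5.94 log2 units for Ccl5 (adjusted p = 3.44e-08), a chemokine. It was -3.34 for Saa3, an acute phase protein (adjusted p = 0.0356), -2.57 for the scavenger receptor Marco and -2.10 for Ly6e. The antiviral genes Oasl2 and Oas1g had changes of -1.77 and -1.50, and the chemokine Ccl8 one of -1.64. The interferon-inducible GTPases Ifi47 and Gbp2 had changes of -1.47 and -1.14, and Phf11d one of -1.24 (adjusted p = 0.0440). The change was positive for Fignl1 (1.69, adjusted p = 0.0390) and Bhlhb9 (1.45, adjusted p = 0.0318). Ccl5, Saa3 and Gbp2 lay within 1 log2 unit of the highest signal of 15.41 in both LPS groups, and whether the top of the scale limited their difference there was not tested. All arrays with LPS lay on a different slide from those without, and it is not stated whether cells without LPS were kept as long, so LPS, slide and time cannot be told apart.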

How the results depend on the processing

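Of 823 pairs of a called gene and an alternative that could test it, 430 were still called. The 27 genes higher became 16 with median scaling, 5 with detection on all 15 arrays, 16 with detection on the 4 arrays compared, 11 with array weights, and 0 on those 4 arrays or the LPS slide alone. With 1 array left out they numbered 0 to 40. The 19 lower became 10 with cyclic loess, 9 with no detection filter, 6 with detection on all 15 arrays, 10 with detection on the 4, 5 with array weights, and 0 on the 4 arrays or the slide alone. With 1 array left out they numbered 1 to 38. The 86 genes of IFNβ alone became 31 to 106 with 1 array left out. The 12 changes with LPS became 22 without background correction, 20 with offset 50, 25 with detection on all 15 arrays, 27 with trended and robust variances and 1 to 26 with 1 array left out. The 1029 genes that differed between the interferons became 398 on the slide alone and 521 to 1508 with 1 array left out. The replicate block gave 20 higher, 9 lower, 57 with IFNβ alone and 6 changes with LPS. The numbers share no stated origin, and deviations of same-numbered primed and unprimed arrays correlated at 0.212, which with 2 pairs does not show pairing. The causes were not tested. Array medians were only 1.37 to 1.47 times background, which limits dim genes.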
